A study of Mus musculus with 7 samples.

Results

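Isl1 and the T-box genes Tbx2, Tbx3, Tbx5 and Tbx20 were followed in RNA from the ventricles of mouse embryos at E11.5. These 5 genes were taken by name for their roles in cardiac chamber, atrioventricular canal and second heart field identity, out of 13701 genes in the deposited count table, and all 5 passed the filter on low counts. The study removed Hand1, a transcription factor of the basic helix-loop-helix class, from the heart muscle and sequenced polyadenylated RNA of 7 ventricle libraries. The knockout group (2 libraries) carried 1 Cre allele of Nkx2-5 and 2 floxed Hand1 alleles (labelled Nkx Cre +/- and H1flox/flox). The flox control group (2 libraries) carried the same 2 floxed Hand1 alleles with no Cre (Nkx Cre wt). In the Cre control group (3 libraries) the Cre allele was present and Hand1 was wild type (Nkx Cre +/- and wt). All embryos were of mixed background and none was treated. The Cre is driven from the Nkx2-5 gene and so acts in cells that express Nkx2-5, in heart muscle and in other cardiac lineages. The Cre allele is therefore shared by the knockouts and the Cre controls, and the floxed alleles by the knockouts and the flox controls.

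T-box factors bind DNA through a shared T-box domain, and in the developing heart some activate and others repress the same chamber genes. Tbx5 activates chamber genes together with Nkx2-5 and Gata4, Tbx20 is needed for chamber growth and restrains Tbx2, and Tbx2 and Tbx3 repress chamber genes in the atrioventricular canal, with Tbx3 also marking the conduction system. Isl1, a LIM-homeodomain factor, marks second heart field progenitors that build the outflow tract and right ventricle, and later the sinus node and cardiac ganglia, and it declines as progenitors become muscle.

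Isl1 lies at chr13:116298270-116309688 on the minus strand of mm10, the build of the deposited coordinates, with 6 exons. Tbx2 lies at chr11:85832615-85841948 on the plus strand with 7 exons. Tbx3 (chr5:119670862-119684724) and Tbx5 (chr5:119834663-119885218) each have 9 exons, lie on the plus strand and are 149.9 kb apart. Tbx20 lies at chr9:24720812-24774303 on the minus strand with 9 exons. No pair of these genes shared a run of 50 bases in their annotated transcripts, and the longest shared run was 20 bases, between Tbx2 and Tbx5.

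The 250 bases before the start site of Isl1 and Tbx20 (RefSeq, build GRCm38.p6) are shown because the deleted factor belongs to the class that binds the E-box CANNTG, and because T-box factors bind the motif AGGTGT. Capitals mark CANNTG, which is palindromic and so was read on both strands at once, and the motifs can share bases when they lie side by side.
Isl1: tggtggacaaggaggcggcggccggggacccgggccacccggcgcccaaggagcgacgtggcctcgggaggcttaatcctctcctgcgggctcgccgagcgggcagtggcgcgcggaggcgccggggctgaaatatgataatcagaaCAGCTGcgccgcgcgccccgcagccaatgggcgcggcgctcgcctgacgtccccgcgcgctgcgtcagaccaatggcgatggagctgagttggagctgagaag
Tbx20: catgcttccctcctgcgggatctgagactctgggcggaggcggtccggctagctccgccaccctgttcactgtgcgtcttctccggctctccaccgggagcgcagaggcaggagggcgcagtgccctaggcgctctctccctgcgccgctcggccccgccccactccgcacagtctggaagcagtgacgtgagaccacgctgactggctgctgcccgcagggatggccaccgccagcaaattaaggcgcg
The Isl1 window (chr13:116309689-116309938) held 1 CANNTG, with its first base 103 bases before the start, and no AGGTGT on either strand. The Tbx20 window (chr9:24774304-24774553) held neither. Of 32851 such promoter windows, 66.2% held CANNTG and 11.8% held AGGTGT on either strand. A match describes letters and not a bound site, and windows for Tbx2, Tbx3 and Tbx5 were not used here.

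The libraries held 18975283 to 28346700 counts. The targeted gene followed its labels: Hand1 stood at 1.22 ± 0.104 CPM (read counts scaled to library size with TMM factors; SD, n = 2) in the knockouts, 40.9 ± 9.53 (n = 2) in flox controls and 81.2 ± 14.2 (n = 3) in Cre controls. Nkx2-5, which carries the Cre, stood at 107.0 ± 25.6, 146.0 ± 20.9 and 100.5 ± 12.8 CPM in the same order. Knockout replicate 2 was unlike the rest, with a highest correlation of 0.927 with any of them across genes, against at least 0.978 for each other library. In that library the median log2 difference from the controls ran from 0.91 in the fifth of genes with the lowest GC content to -0.54 in the fifth with the highest, against -0.21 to 0.12 in knockout replicate 1. Both knockouts read as female: they and the second replicate of each control group held 13970 to 27200 Xist counts and at most 13 counts over 4 Y-linked genes, while the other 3 controls held at most 31 Xist and 5467 to 8448 Y-linked counts. With embryo sex as a covariate, an alternative added after the data had been seen, neither edgeR nor DESeq2 called any of the 5 genes, and DESeq2 called 42 genes against flox and 57 against Cre controls, in place of 302 and 555. As labelled, the tissue was rich in cardiomyocyte markers (11440 to 34980 CPM summed over 6 genes), and none of 3 liver markers was among the measured genes. The 6 atrial markers summed to 3360 to 8230 CPM, nearly all from Myl7 (1295 to 3903) and Myl4 (2020 to 4296). Sln was at 0.105 to 2.15 CPM, Nr2f1 at 3.37 to 10.1, Kcna5 at 4.095 to 8.05 and Nr2f2 at 21.3 to 29.96. Summed erythroid markers (4 genes) were at 14080 CPM in knockout replicate 2 and 2917 to 7938 in the other libraries. The libraries are whole ventricles, so fewer cells of a type and less RNA per cell cannot be told apart. The labels do not say which embryos or litters the libraries came from, so p-values measure only the spread between these samples.

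**Figure D1:**
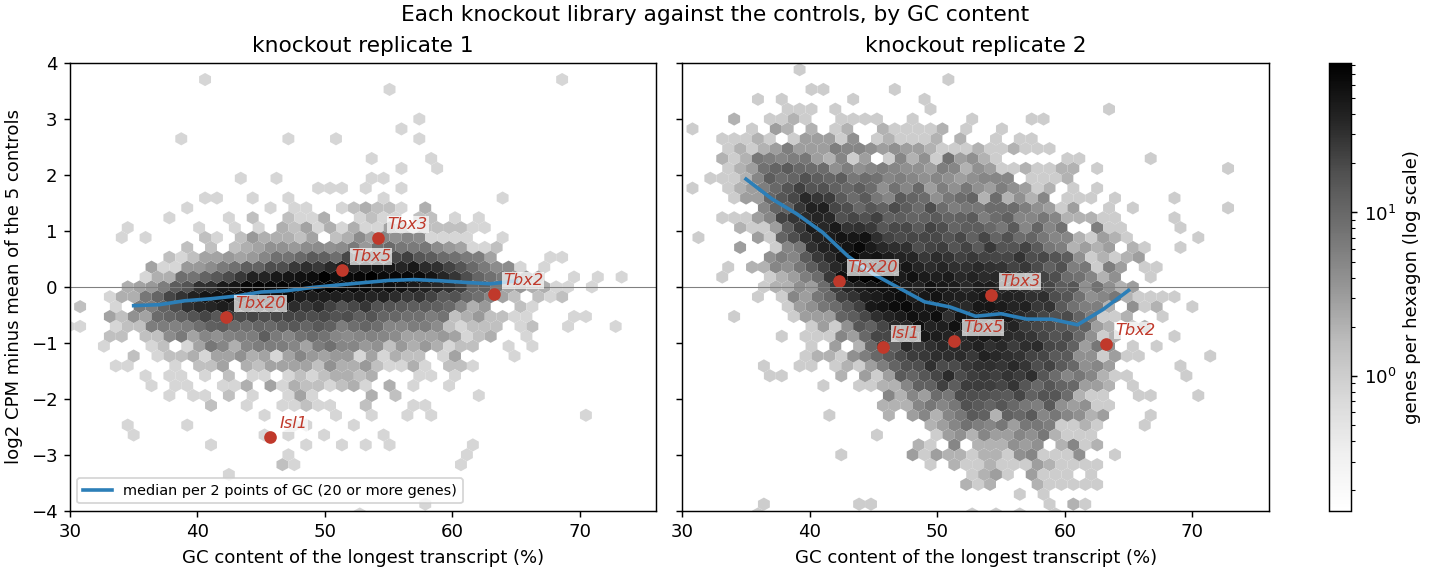
Log2 CPM of each knockout library minus the mean of the 5 controls (y axis) against the GC content of each gene's longest transcript in percent (x axis), with hexagons shaded by the number of genes on a log scale, the median as a line and the 5 genes as red points. In knockout replicate 2 the median falls with GC content and Tbx2, Tbx5 and Isl1 lie near -1, while in replicate 1 the median stays near 0, Isl1 lies at -2.68 and Tbx3 at 0.87.

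Levels differed widely between the 5 genes. Per kilobase of exon (RPKM, TMM-scaled CPM divided by the deposited exon length), Tbx20 averaged 104.7 over the 5 controls, above 95.9% of the genes tested, and Tbx5 averaged 21.6, above 73.7%. Tbx2 followed at 9.21 RPKM, above 48.9% of genes, then Tbx3 at 5.62, above 35.8%, and Isl1 at 2.33, above 21.4%. In the controls no neighbours in this order overlapped: Tbx5 ran from 17.5 to 23.1 RPKM, Tbx2 from 8.12 to 10.6, Tbx3 from 4.94 to 6.52 and Isl1 from 0.834 to 4.93. In the knockouts the order of Tbx2 and Tbx3 was the other way round, with Tbx3 at 10.2 and Tbx2 at 8.41 RPKM in replicate 1, and 5.04 against 4.50 in replicate 2.

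Isl1, the progenitor and pacemaker factor, had the lowest level and the widest differences between groups. The knockout libraries gave 20 and 38 counts, the flox controls 54 and 80, and the Cre controls 172, 147 and 330. These were 0.698 and 2.29 CPM in the knockouts, 2.11 and 2.99 in the flox controls, and 6.61, 5.27 and 12.5 in the Cre controls. Both knockouts and both flox controls lay below every Cre control, and the second knockout lay between the flox controls. The group means were 1.49 ± 1.12 (SD, n = 2), 2.55 ± 0.628 (n = 2) and 8.11 ± 3.82 CPM (n = 3), so that the knockouts held 18.4% and the flox controls 31.5% of the Cre control mean. The length and GC trend of knockout replicate 2 was 0.29 log2 units for Isl1. With the trends removed both knockouts lay below all 5 controls, at -2.66 and -1.36 log2 units from the control mean against -1.21 in the lowest control, as did 11.8% of all genes.

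Against the Cre controls the log2 change of Isl1 was -2.49 (SE 0.64, 95% interval -4.05 to -0.94), and edgeR gave an adjusted p of 0.284. The other count test placed the same difference past the threshold of 0.05: with DESeq2 it was -2.45 (SE 0.61), adjusted p = 0.00406. EdgeR called 0.0146% of all genes in this comparison and DESeq2 4.05%, or 2.46% in the lower direction, while 15.4% had an unadjusted edgeR p below 0.05. Isl1 was the 1 gene of the 5 that DESeq2 called, and edgeR called none of them. It was also the only 1 of the 5 with no overlap between knockouts and Cre controls, as were 18.9% of all genes in that direction. The authors' deposited table gave -2.48 for this comparison, with a false discovery rate of 0.116. The DESeq2 call rested on Cre control replicate 3, the library with the highest Isl1, and without it the change was -2.0 with a DESeq2 adjusted p of 0.112. Without knockout replicate 1, the library with the lowest Isl1, edgeR gave -1.82 with an adjusted p of 0.0229 against 64.3% of all genes called, and without knockout replicate 2 DESeq2 gave -3.52 with an adjusted p of 1.01e-07 against 3.35%. With embryo sex as a covariate the Isl1 change was -2.27 by edgeR (adjusted p = 0.538) and -2.24 by DESeq2 (adjusted p = 0.204). Among the libraries that read as female, the knockouts (0.698 and 2.29 CPM) lay below the flox control (2.99) and the Cre control (5.27).

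Against the flox controls the log2 change of Isl1 was -0.83 (SE 0.67, interval -2.45 to 0.79) and neither test called it, with an adjusted p of 0.671 from edgeR and 0.645 from DESeq2. EdgeR called 0.0146% of all genes in this comparison and DESeq2 2.21%, and 8.36% had an unadjusted edgeR p below 0.05. None of the 5 genes was called by either. Without knockout replicate 2 the change was -1.85 and DESeq2 gave an adjusted p of 0.0329, with 7.39% of all genes called, while edgeR gave 0.168.

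The Isl1 values of the 2 control groups lay apart, but neither test called the difference with all libraries. Isl1 was 1.67 log2 units higher in Cre than in flox controls (SE 0.60, interval 0.22 to 3.12), with an unadjusted edgeR p of 0.0305 and an adjusted p of 0.999 by edgeR and 0.421 by DESeq2. EdgeR called 0% of genes between the controls, 3.13% had an unadjusted p below 0.05 and DESeq2 called 0.533%. Without knockout replicate 2 in the joint fit, which then estimates the spread from the other libraries, DESeq2 gave 1.67 with an adjusted p of 0.00157 and called 2.61% of genes, while edgeR gave 0.163. Isl1 was the only 1 of the 5 whose control groups did not overlap, as were 17.2% of all genes in that direction. The Cre controls differ from the flox controls in both the Cre allele and the Hand1 locus, and these cannot be told apart. Hand1 itself was 0.99 log2 units higher in the Cre controls (SE 0.24, edgeR adjusted p = 0.906).

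Markers of other cells that express Isl1 did not all move with it. Of 8 neural crest and ganglion neuron markers 3 were measured, and Sox10, a neural crest factor, had 6 and 0 counts in the knockouts, 10 and 13 in flox controls and 75, 20 and 85 in Cre controls. Its change against the Cre controls was -4.21 by DESeq2 (SE 1.00, adjusted p = 0.00197), with an edgeR adjusted p of 0.279. Elavl4, a neuronal marker, was at 4.26 and 12.7 CPM in the knockouts, 5.73 and 3.22 in flox controls and 3.11 to 4.04 in Cre controls. Stmn2, also neuronal, was at 1.33 and 4.095 in the knockouts, 2.18 and 3.63 in flox controls and 1.97 to 5.55 in Cre controls. The trend of knockout replicate 2 was 1.06 for Elavl4 and 1.39 for Stmn2, and neither test called them. The summed level of the 3 was 5.79 to 16.7 CPM in knockouts, 7.34 to 8.31 in flox controls and 6.41 to 12.8 in Cre controls, so the sum did not follow Sox10. Hcn4, a pacemaker channel of the sinus node with a length and GC trend of -0.99 in knockout replicate 2, was at 24.2 and 3.55 CPM in the knockouts, 30.7 and 43.1 in flox controls and 56.8, 50.1 and 56.9 in Cre controls. Both knockouts lay below the flox and the Cre controls, as did 16.3% and 18.9% of all genes, and edgeR did not call Hcn4 (adjusted p = 0.603 against flox and 0.324 against Cre controls). DESeq2 did not call it with all libraries, and with length and GC factors it called the change against Cre controls (-1.79, adjusted p = 0.00134). The sex covariate gave DESeq2 changes against Cre controls of -3.28 for Sox10 (adjusted p = 0.183) and -2.02 for Hcn4 (adjusted p = 0.304). The part of these cells in the Isl1 difference was not tested.

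**Figure D2:**
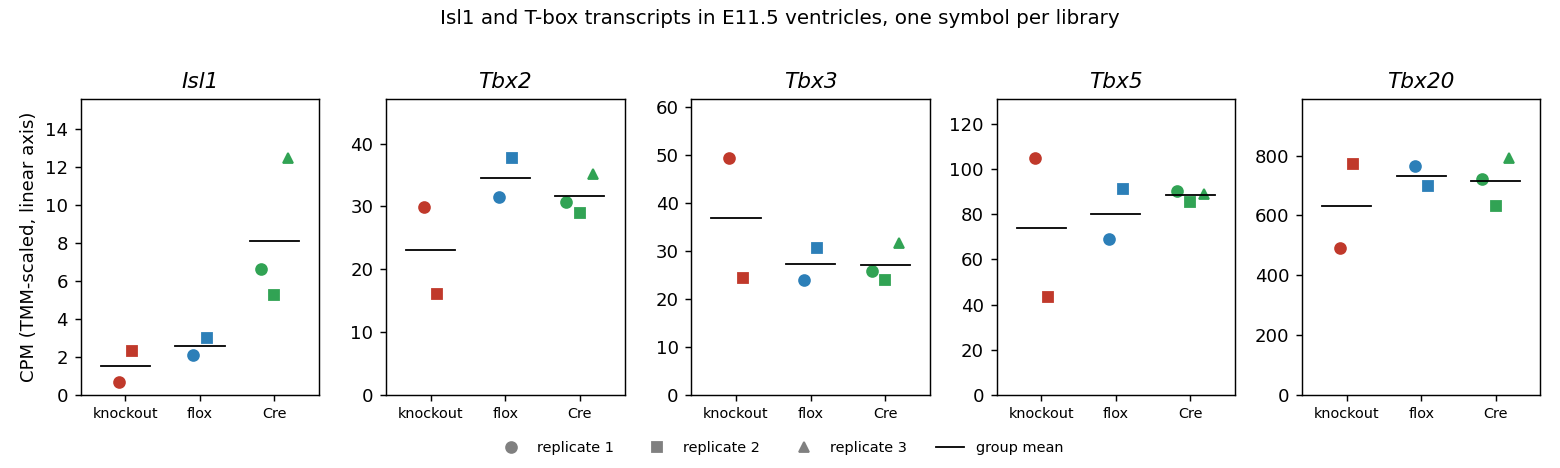
TMM-scaled CPM on a linear axis that starts at 0 (y axis) of Isl1, Tbx2, Tbx3, Tbx5 and Tbx20 in knockout, flox control and Cre control libraries (x axis), with 1 symbol per library and a line at each group mean. The Isl1 symbols of the Cre controls lie above all others, and the 2 knockout symbols of Tbx2, Tbx3, Tbx5 and Tbx20 lie far apart.

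Tbx2, the canal repressor, gave 858 and 266 counts in the knockouts, 808 and 1007 in flox controls and 801, 807 and 931 in Cre controls. The levels were 29.95 and 16.0 CPM in the knockouts, 31.5 and 37.7 in flox controls, and 30.8, 28.9 and 35.1 in Cre controls. Knockout replicate 1 lay inside the control range and replicate 2 far below it. Both knockouts were below both flox controls, as were 16.3% of all genes, and Tbx2 was the only 1 of the 5 of which this held. The log2 change was -0.59 against flox controls (SE 0.31, interval -1.35 to 0.17, edgeR adjusted p = 0.603) and -0.46 against Cre controls (SE 0.29, interval -1.16 to 0.24, edgeR adjusted p = 0.402). Of the Tbx2 deviation of -1.02 in knockout replicate 2, the trend of that library on gene length and GC content was -0.91, the GC content of Tbx2 being 63.2%. Without knockout replicate 1, which left replicate 2 alone in its group, edgeR called Tbx2 at -1.11 (adjusted p = 0.00255) and -0.98 (adjusted p = 0.0024), in fits that called 55.1% and 64.3% of all genes. With these trends removed the change was -0.33 (SE 0.15, edgeR adjusted p = 0.510) and -0.07 (SE 0.14, adjusted p = 0.787).

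Tbx3, the second canal repressor and conduction factor, gave 1413 and 405 counts in the knockouts, 612 and 819 in flox controls and 672, 669 and 836 in Cre controls. In CPM this was 49.3 and 24.4 in the knockouts, 23.9 and 30.7 in flox controls, and 25.8, 24.0 and 31.6 in Cre controls. Knockout replicate 1 was above every control and replicate 2 inside their range. The log2 change was 0.44 against flox controls (SE 0.36, interval -0.43 to 1.31, edgeR adjusted p = 0.674) and 0.45 against Cre controls (SE 0.32, interval -0.34 to 1.23, edgeR adjusted p = 0.443). Neither passed, and the direction rested on replicate 1, without which the edgeR values were -0.16 and -0.15.

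Of the 5, Tbx3 moved most when the length and GC trend of each library was removed. The trend placed Tbx3 at -1.03 log2 units in knockout replicate 2, where the measured deviation was -0.15. After removal both knockouts were above all 5 controls, by 0.80 and 0.88 log2 units over the control mean, with the controls between -0.27 and 0.21. Such separation in the higher direction was found for 7.57% of all genes. In the fit with these offsets the log2 change was 0.75 against flox controls (SE 0.18, interval 0.32 to 1.17, edgeR adjusted p = 0.241) and 0.89 against Cre controls (SE 0.16, interval 0.51 to 1.27, edgeR adjusted p = 0.0896). EdgeR with offsets called 0.0146% and 0.11% of all genes. DESeq2 with the same factors gave 0.78 (SE 0.22, adjusted p = 0.0206) and 0.91 (SE 0.20, adjusted p = 0.000374), where it called 0.745% and 2.06% of all genes as higher. Leaving out knockout replicate 2 in place of the correction, DESeq2 gave 0.88 (adjusted p = 0.0140) and 0.89 (adjusted p = 0.00944), with 2.95% and 0.934% of all genes higher. EdgeR without that library called 0.336% and 0.46% of all genes and not Tbx3, and with the offsets added it called Tbx3 against Cre controls (0.87, adjusted p = 0.0489). The length and GC correction was added after the data had been seen. With embryo sex as a covariate and no other correction the Tbx3 changes were 0.43 and 0.44 (edgeR adjusted p = 0.788 and 0.617).

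The ratio of Tbx3 to Tbx2, 2 repressors read in the same library, was 1.21 and 1.12 per length in the knockouts, 0.558 and 0.599 in flox controls, and 0.618, 0.611 and 0.661 in Cre controls. The knockout libraries were alike in this ratio while their CPM levels of both genes differed by 1.87 times for Tbx2 and 2.02 times for Tbx3. The length and GC trends of knockout replicate 2 for the 2 genes were alike, at -0.91 and -1.03. The ratio is a description and carries no test. The noncoding transcript AW549542 lies 90.5 kb from Tbx3 on the opposite strand and was the nearest measured gene, with 83 and 53 counts in the knockouts, 35 and 46 in flox controls and 37, 36 and 27 in Cre controls. DESeq2 gave AW549542 a log2 change of 1.31 against Cre controls (SE 0.33, adjusted p = 0.00445) and 1.01 against flox controls (SE 0.36, adjusted p = 0.135), and edgeR adjusted p-values of 0.202 and 0.476. When sex was a covariate DESeq2 gave AW549542 a change of 1.19 against Cre controls, with an adjusted p of 0.328. Its counts were few, and whether it and Tbx3 share control was not tested.

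**Figure D3:**
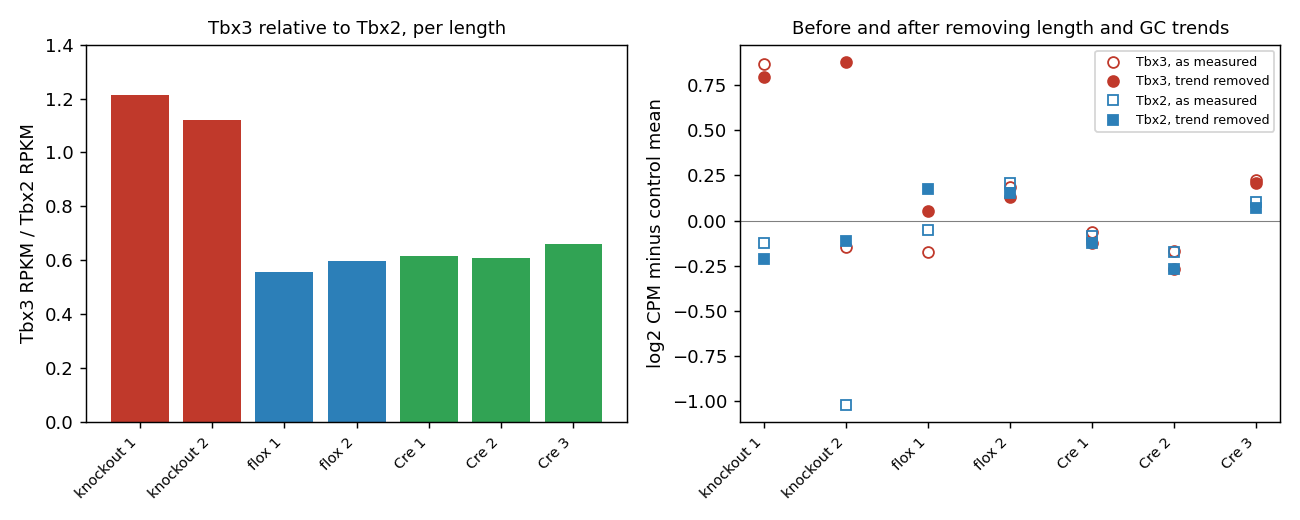
Left, the ratio of Tbx3 to Tbx2 RPKM (y axis, bars from 0) in each library (x axis). Right, log2 CPM minus the control mean (y axis) of Tbx3 and Tbx2 in each library before (open) and after (filled) removal of the length and GC trends. The 2 knockout bars reach 1.21 and 1.12 and the control bars at most 0.661, and the filled Tbx3 points of both knockouts lie above all controls.

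Tbx5, the chamber activator, gave 3006 and 717 counts in the knockouts, 1771 and 2433 in flox controls and 2357, 2384 and 2364 in Cre controls. In CPM this was 104.9 and 43.2 in the knockouts, 69.1 and 91.1 in flox controls, and 90.5, 85.4 and 89.2 in Cre controls. The knockout replicates lay on opposite sides of every control, 2.43 times apart, while the controls differed by at most 1.32 times. The log2 change was -0.11 against flox controls (SE 0.41, interval -1.11 to 0.88, edgeR adjusted p = 0.920) and -0.25 against Cre controls (SE 0.38, interval -1.17 to 0.66, edgeR adjusted p = 0.683). Without knockout replicate 1 edgeR called it lower, at -0.89 (adjusted p = 0.00591) and -1.03 (adjusted p = 0.00186), in those same fits with 55.1% and 64.3% of genes called, and without replicate 2 the values were 0.41 and 0.27 and were not called. With the length and GC trends removed the intervals were -0.45 to 0.51 and -0.44 to 0.44, and the sign was not fixed. The Tbx5 deviation of -0.97 in knockout replicate 2 stood beside a trend of -0.67 for a gene of its length and GC content (51.3%).

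Tbx20, the most abundant of the 5, gave 14111 and 12822 counts in the knockouts, 19606 and 18676 in flox controls and 18768, 17608 and 20978 in Cre controls. In CPM this was 492.6 and 772.1 in the knockouts, 764.7 and 699.0 in flox controls, and 721.0, 630.7 and 791.6 in Cre controls. Knockout replicate 1 was below every control and replicate 2 inside their range. The log2 change was -0.21 against flox controls (SE 0.30, interval -0.94 to 0.51, edgeR adjusted p = 0.793) and -0.18 against Cre controls (SE 0.28, interval -0.84 to 0.49, edgeR adjusted p = 0.695). With the trends removed both knockouts were below all 5 controls, at -0.27 and -0.15 log2 units, as were 11.8% of all genes, and the lowest control was also at -0.15 when rounded. The change was then -0.10 and -0.29, with edgeR adjusted p of 0.855 and 0.377. With gene length alone removed its sign turned, at 0.21 and 0.20.

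**Figure D4:**
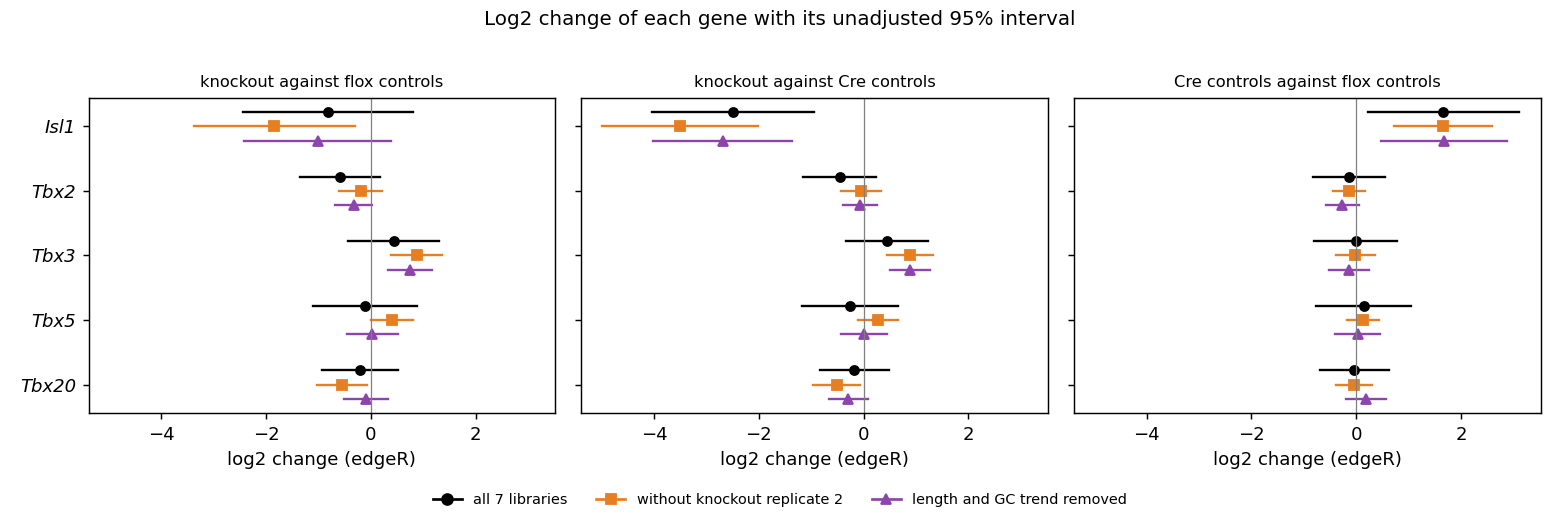
Log2 change with its unadjusted 95% interval (x axis) of Isl1, Tbx2, Tbx3, Tbx5 and Tbx20 (y axis) in the 3 comparisons by edgeR, with all 7 libraries (circles), without knockout replicate 2 (squares) and with length and GC trends removed (triangles). In the comparison with Cre controls the Isl1 intervals lie below 0 in all 3 fits. The Tbx3 interval there lies above 0 when the trends are removed, at 0.51 to 1.27, and also without knockout replicate 2. The Tbx20 interval lies below 0 only without knockout replicate 2, a fit with 1 knockout library.

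The ratio (Tbx2 + Tbx3) / (Tbx5 + Tbx20) in RPKM was 0.190 and 0.0776 in the knockouts, 0.107 and 0.136 in flox controls, and 0.110, 0.116 and 0.119 in Cre controls. The 2 knockout libraries lay on either side of all controls. Over Tbx5 alone this did not hold, with 0.699 and 0.871 in the knockouts and 0.603 to 0.786 in the controls. Tbx20 made the larger part of the denominator, at 104.7 RPKM in the controls against 21.6 for Tbx5. The length and GC trend of knockout replicate 2 was -0.91 for Tbx2, -1.03 for Tbx3, -0.67 for Tbx5 and 0.26 for Tbx20. Between the controls the widest T-box difference was 0.14 log2 units, for Tbx5, with an interval of -0.77 to 1.05 and an edgeR adjusted p of 0.999. The authors' deposited table listed the knockout against the Cre controls at -0.47 for Tbx2, 0.43 for Tbx3, -0.27 for Tbx5 and -0.20 for Tbx20, with false discovery rates of 0.383, 0.510, 0.653 and 0.748.

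The pattern of each gene over the libraries was compared with those of at least 5 CPM (10752 for Isl1 and 10751 for each T-box gene), by Pearson's r of log2 CPM over all 7 libraries, as a description in which knockout replicate 2 weighs heavily. Isl1 was most like Znrf1 (r = 0.999), Fbxo3 (0.990) and Ppp1r15b (0.980), and without knockout replicate 2 these were 0.999, 0.993 and 0.979. An r of 0.9 with Isl1 was passed by 21 genes, and by 178 without that library. Tbx3 was most like P2rx4 (0.963), Ufd1l (0.958) and Vipas39 (0.958), with 8 genes past 0.9, or 40 without it. Tbx20 was most like Dclk1 (0.982), Trip4 (0.979) and Dlg1 (0.979), with 52 past 0.9, or 260 without it. For Tbx2 (Shc1 0.994, Ip6k1 0.993, Kif1a 0.993) and Tbx5 (Igf2bp2 0.999, Lpcat1 0.997, Ctsb 0.997) 1451 and 2517 genes passed 0.9, falling to 42 and 638 without it. Among the members, Tbx2 and Tbx5 had r = 0.86 over 7 libraries and 0.01 without knockout replicate 2. Tbx2 and Tbx3 had 0.29 over 7 libraries, 0.06 without knockout replicate 2 and 0.90 over the 5 controls.

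Genes that work beside the 5 were read from lists chosen for their roles. EdgeR called no gene of any list in any comparison, so the counts below are of DESeq2, to be read beside its 2.21% and 4.05% of all genes. Of 13 other T-box genes 2 were measured, Tbx18 and Mga, and neither was called. Of 15 partners and cofactors, among them Nkx2-5, Gata4, Hand2 and the Isl1 partner Ldb1, none was called, and their median log2 change was -0.18 against flox and -0.43 against Cre controls (0.02 and 0.00 over all genes). The most abundant were Chd4, a chromatin remodeller that binds Tbx5 and Tbx20, and Gata4. Chd4 was at 728.0 and 164.8 CPM in the knockouts against 477.3 to 736.8 in the controls. Gata4 was at 413.6 and 115.8 CPM against 244.4 to 378.1. As with Tbx5, the knockout libraries lay far apart for both, and the length and GC trend of knockout replicate 2 was -1.11 for Chd4 and -0.89 for Gata4.

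In the second heart field and outflow tract list, where Isl1 acts, 14 of 22 genes were measured. Foxc1, a forkhead factor of that field, fell by DESeq2 against both control groups. It was at 23.1 and 18.8 CPM in the knockouts, 35.5 and 38.0 in flox controls and 39.1 to 43.5 in Cre controls. The log2 changes of Foxc1 were -0.77 (SE 0.20, DESeq2 adjusted p = 0.0106) and -0.95 (SE 0.18, adjusted p = 5.07e-05). Against the Cre controls Bmp4, a signal of the outflow tract, fell by 1.31 (SE 0.32, DESeq2 adjusted p = 0.00327) and Ptch1, the Hedgehog receptor, fell by 0.90 (SE 0.28, DESeq2 adjusted p = 0.0405). With length and GC factors DESeq2 no longer called Foxc1 (-0.44 and -0.45, adjusted p = 0.578 and 0.321), whose trend in knockout replicate 2 was -0.95. It still called Bmp4 (adjusted p = 0.00658) and Ptch1 (adjusted p = 0.0166) against Cre controls. Ptch1 was then also called against flox controls (-0.81, DESeq2 adjusted p = 0.0173, beside 0.0712 without the factors). Without knockout replicate 2, which left 1 knockout library, the DESeq2 log2 change of Foxc1 was -0.649 against flox and -0.815 against Cre controls. In that fit Ptch1 was at -0.694 and -0.626, and Bmp4 at -0.82 and -1.376. None of the 3 was called with sex as a covariate, at DESeq2 adjusted p of 0.248, 0.302 and 0.299 against Cre controls for Foxc1, Bmp4 and Ptch1. Their log2 changes there were -0.94, -1.03 and -1.03 in the same order. With all libraries and neither the factors nor the covariate, the other 13 and 11 genes did not pass. The list medians were -0.33 against flox and -0.19 against Cre controls.

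Of the 13 measured atrioventricular canal genes of 15 listed, which include Bmp2, an inducer of Tbx2 there, none was called, and the median log2 change was -0.38 against flox and -0.48 against Cre controls. The most abundant were Cacna1h, a T-type calcium channel, at 249.0 and 60.6 CPM in the knockouts and 217.3 to 281.8 in the controls, and Tgfb2, a cushion signal, at 143.2 and 71.5 against 107.2 to 163.8. In both, as in Tbx2, replicate 2 alone lay below the controls, where its trend was -1.45 for Cacna1h and -0.32 for Tgfb2. Summed cushion mesenchyme markers, 7 of 7 measured and none at 0, were 225.0 to 420.4 CPM in the knockouts and 488.6 to 664.0 in the controls, and endocardial markers, 6 of 6, were 478.5 to 895.0 against 999.4 to 1233. Of the single markers, 2 of 7 cushion and 2 of 6 endocardial genes lay below both flox controls, as did 16.3% of all genes. Below all Cre controls lay 2 of 7 and 2 of 6, as did 18.9%. Postn, the cushion marker with the highest level, was at 241.3 and 131.9 CPM against 319.7 to 440.0. Npr3 was at 121.0 and 210.7 against 195.5 to 324.8. The trend of knockout replicate 2 was 1.51 for Postn, -1.22 for Nfatc1 and -0.77 for Cdh5. The part of these cells in the levels of the T-box genes was not tested.

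All 21 chamber myocardium genes, the targets that Tbx5 activates and Tbx2 and Tbx3 repress among them, were measured. Nppa, the natriuretic peptide gene read out for both actions, fell by DESeq2 against both control groups, with 521.3 and 705.8 CPM in the knockouts, 1513 and 1265 in flox controls and 1230 to 1440 in Cre controls. The log2 change of Nppa was -1.15 (SE 0.24, DESeq2 adjusted p = 0.000678) against flox and -1.07 (SE 0.22, adjusted p = 0.000274) against Cre controls. Against the Cre controls Irx2 (0.81, DESeq2 adjusted p = 0.00363), Hopx (1.09, adjusted p = 0.0415) and Smpx (2.08, adjusted p = 0.0412) were higher and Cited1 lower (-0.94, adjusted p = 0.0104). Smpx stood at 327.2 and 1777 CPM in the knockouts and Hopx at 188.6 and 370.9, against 236.3 to 573.6 and 121.5 to 225.5 in the controls, so replicate 1 lay inside the control range for both. The trend of knockout replicate 2 was 1.62 for Smpx and 0.74 for Hopx, and without that library DESeq2 gave adjusted p of 0.678 and 0.130. With length and GC factors DESeq2 did not call Smpx (adjusted p = 0.0818). It still called Hopx (0.62, adjusted p = 0.0121), Irx2 (1.12, adjusted p = 0.000185) and Cited1 (-0.93, adjusted p = 8.07e-06) against Cre controls. Nppa was still called against both control groups (-1.64 and -1.58, DESeq2 adjusted p = 7.21e-24 and 4.67e-27). None of these 5 chamber genes was called with sex as a covariate. In that fit the DESeq2 log2 change of Nppa was -1.16 against flox and -1.08 against Cre controls (adjusted p = 0.251 and 0.208). Without these factors or the covariate, the other 20 and 16 chamber genes did not pass. The list medians were 0.21 and 0.01.

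All 16 pacemaker and conduction genes were measured. By DESeq2, Cacna1d, an L-type calcium channel of pacemaker cells, fell against flox controls by 1.71 (SE 0.27, adjusted p = 1.44e-07) and its log2 change against Cre controls was -1.78 (SE 0.24, adjusted p = 2.8e-10), at 12.7 and 9.63 CPM in the knockouts and 32.8 to 42.5 in the controls. Scn10a, a sodium channel whose locus binds Tbx3 and Tbx5, rose against both, by 1.10 (SE 0.29, DESeq2 adjusted p = 0.0118) and 1.53 (SE 0.27, adjusted p = 2.4e-06), at 12.8 and 10.8 CPM against 3.74 to 6.32. Against the Cre controls Kcne1, a potassium channel subunit, rose by 0.76 (DESeq2 adjusted p = 0.0165) and Kcnk3, a potassium channel, fell by 1.74 (DESeq2 adjusted p = 3.85e-05). With embryo sex as a covariate DESeq2 still called Cacna1d against both control groups (adjusted p = 0.00618 and 0.0015), and Scn10a (0.0118) and Kcnk3 (0.00109) against the Cre controls. The DESeq2 change of Scn10a against flox controls was then 1.23 (adjusted p = 0.316), and that of Kcne1 against Cre controls was 0.72 (adjusted p = 0.385). The other 14 and 12 genes did not pass. Among marker lists of other cells, Myl7, an atrial light chain, rose against flox controls (1.20, DESeq2 adjusted p = 0.0145), while the median of the 6 atrial markers was -0.35 and 3 of them lay below both flox controls, and Tcf21, an epicardial factor, rose against Cre controls (0.46, DESeq2 adjusted p = 0.0492). Neither was called with length and GC factors (DESeq2 adjusted p = 0.0793 and 0.764) or with embryo sex as a covariate (0.465 and 0.509). The changes of Myl7 and Tcf21 were 0.49 and 0.10 with the factors, and 1.22 and 0.49 with the covariate.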

How the data were processed

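The authors deposited 1 table of raw counts, with a row per gene, its coordinates and exon length, and a column for each of the 7 libraries. For knockout against Cre controls it also gives the authors' log2 changes with p-values and false discovery rates. Tools and genome, per the submitters' processing notes, were mm10, STAR 2.4.2a, Subread 1.5.0 with featureCounts, and edgeR. Strand use, settings and annotation are not given in the sources used here. Total counts are those of the genes in the table, whose lowest summed count is 9, and lower genes were not analysed here.

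Groups came from the genotype labels. EdgeR 4.0.16 in R 4.3.3 (quasi-likelihood, TMM scaling, filterByExpr, robust) was fitted to all 7 libraries with a mean per group, and p-values were adjusted (Benjamini-Hochberg) over the 13695 genes tested, at a threshold of 0.05. Log2 CPM used a prior count of 2, and intervals are unadjusted. DESeq2 1.42.0 and voom in limma 3.58.1 were alternatives, with other scalings, filters and fits, each library left out, and, added after the data were seen, length and GC offsets from smooth trends per library (mgcv 1.9.3; GC known for 96.3% of genes) and embryo sex, read from Xist and 4 Y-linked genes, as a covariate. The tests were run on simulated counts in which all libraries had the same spread. That check does not cover a library as far from the rest as knockout replicate 2. Members, lists and named-gene rules (every member, list genes called by edgeR or DESeq2, otherwise the 2 most abundant, neighbours within 500 kb, the 3 most alike in pattern) were chosen with earlier results of these data known. The summed sinus node marker list is not reported here.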

Additional observations from a re-analysis of the deposited data

How the results depend on the processing

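Over 455 alternative fits of the 5 genes, 374 kept the direction and side of the threshold, 32 moved past it and 49 turned the sign. The number of genes called by edgeR against flox controls came to 1 with RLE scaling and with a filter of 1 CPM in 2 libraries, 0 with voom or with the 2 groups alone, and by DESeq2 302, or 205 with length and 318 with length and GC factors. Against Cre controls it was 7 with length and 15 with length and GC offsets, and by DESeq2 555, 467 and 675. Between the controls it was 56 with the 2 groups alone and 3 with length and GC offsets, and by DESeq2 73, 81 and 114. With embryo sex as a covariate edgeR called 0 genes against flox and 0 against Cre controls, and DESeq2 42, 57 and 23 in the 3 comparisons.

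With length, or length and GC, factors in DESeq2 the Isl1 change against Cre controls was -2.43 and -2.65, beside -2.45 without them (adjusted p = 0.00532 and 4.43e-05), and over its 30 alternatives the adjusted p ran from 3.29e-08 to 0.616. For Tbx3 the DESeq2 calls with length and GC factors were 0.78 and 0.91, and its control difference turned to 0.011 with the CPM filter and 0.0011 with sex in DESeq2. Tbx5 against flox controls turned to 0.0022 with DESeq2 length factors, and to 0.026 and 0.060 with length and GC factors in edgeR and DESeq2, and against Cre controls to 0.00038 and 0.029. Tbx20 turned with length factors to 0.21 and 0.24 against flox, 0.20 and 0.22 against Cre, and 0.016 and 0.022 between the controls, where length and GC factors gave 0.19 and 0.20. The ratio of Tbx2 plus Tbx3 to Tbx5 plus Tbx20 became 0.785, 0.759 and 0.645 in knockout, flox and Cre groups over Tbx5 alone, and 0.0765 and 0.0731 in flox and Cre controls from raw counts. The cause of these shifts was not tested. With no TMM factors the median gene shifted to -0.11 against flox and -0.10 against Cre controls.

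Leaving out each library in turn (edgeR and DESeq2), genes called ran from 0 to 7547 (flox), 0 to 8813 (Cre) and 0 to 427 (between controls). The highest counts against both controls came without knockout replicate 1, and a group left with 1 library was taken to have the spread of the others. In the order of flox, Cre and control comparisons, Isl1 ran from -1.85 to -0.13, -3.52 to -1.80 and 1.23 to 1.98, and Tbx2 from -1.11 to -0.19, -0.98 to -0.055 and -0.28 to 0.04. Tbx3 ran from -0.16 to 0.88, -0.15 to 0.89 and -0.18 to 0.22, Tbx5 from -0.89 to 0.41, -1.03 to 0.28 and -0.041 to 0.39, and Tbx20 from -0.56 to 0.11, -0.51 to 0.14 and -0.11 to 0.20. No paired analysis was possible because the labels give no replicate numbers that groups share. The titles carry identifiers, in which both knockouts and no Cre control have the prefix NT. Against the Cre controls this prefix and the genotype therefore cannot be told apart. The knockouts share the prefix with flox control replicate 2. In those 3 libraries alone 2 genes were called and the Isl1 value was -1.02 (edgeR adjusted p = 1). Isl1 rests on 20 to 330 counts a library and so carries the most counting error.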
